A study of Mus musculus with 8 samples.

Results

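Deletion of the mouse gene Ascl2 in the small intestine was compared with control tissue 5 days after induction. The comparison consists of the pair of dye-swapped arrays that the labels give for day 5, which are 2 of the 8 arrays in the series. Both groups were intestinal epithelial cells of mice carrying Ah-Cre: the deleted group was Ah-Cre/Ascl2floxed/floxed, and the control group was Ah-Cre/Ascl2floxed/wt, so the controls also carried Cre, were also induced and had 1 floxed allele. The array labels call this control wildtype, whereas the design text gives the genotype used here. The Ah promoter is the xenobiotic-inducible Cyp1a1 promoter, so recombination depends on cells that respond to the inducing agent. The agent, the age of the mice, the number of mice behind each RNA and the floxed part of the gene are not given in the sources used here. The other arrays compared the same genotypes on day 3 (2 arrays) and Lgr5-GFP high with low cells from 2 sorts, each pooling 3 mice (4 arrays).

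Ascl2 is a basic helix-loop-helix transcription factor and a Wnt target. In the adult intestine it is known as a factor of the cycling stem cells that sit between Paneth cells at the crypt base, the cells that also carry the Wnt co-receptor Lgr5 and secrete Olfm4. Their daughters divide in the crypt, then become absorptive enterocytes or secretory cells (Paneth, goblet, enteroendocrine and tuft cells). The comparison asks which genes are higher or lower in the epithelium once Ascl2 has been removed.

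Array 1 carried the deleted RNA in Cy5 and the control RNA in Cy3, and array 2 carried them the other way round. Ratios were turned to deleted over control and averaged, which balances a dye effect. Both arrays hold the same 2 extracts, so the day has 1 replicate and no test of its own; the difference between the arrays is a technical error only. A gene is called here when it was at least 2-fold higher, or at least 2-fold lower, on both arrays. The 45018 features of an array hold 41174 different probes, of which 23888 probes, for 16430 genes, could be used on day 5. Between 55.0% and 64.1% of probes were well above background in each RNA on each array. The ratios of the arrays had an SD of their difference of 0.223 on the log2 scale and correlated across genes with r = 0.865, genes not being independent replicates. The epithelial genes Epcam and Cdh1 were bright in both RNAs, with mean log2 ratios of -0.04 and -0.08.

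Ascl2 itself was lower in the deleted RNA. Its log2 signal was 9.21 on array 1 and 9.52 on array 2 in the control RNA, against 7.86 and 7.79 in the deleted RNA. The deleted values lay below both control values, and the log2 ratios were -1.34 and -1.73, a mean of -1.53 or 2.90-fold lower. The probe lies at chr7:142777924-142777983 on the minus strand (mm8), and it stayed well above background in the deleted RNA. Whether it lies in the deleted part of the gene cannot be told from these sources, so it reports remaining transcript and not the share of recombined cells. In bulk RNA, fewer cells of a type and less RNA per cell cannot be told apart, here and in every result that follows.

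Olfm4, a secreted glycoprotein of crypt base stem cells, was the lowest of the crypt base genes. The control RNA gave log2 signals of 15.06 and 15.09, and the deleted RNA 12.91 and 12.58. Those values do not overlap, and the log2 ratios of -2.15 and -2.51 average to -2.33, or 5.03-fold lower. Its 2 probes gave -2.35 and -2.33; the one used lies at chr14:78755746-78755805 on the plus strand (mm8).

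In all, 281 genes were called higher (1.71% of those tested) and 150 were called lower (0.913%). These are the shares to set beside each count of calls in a gene list below. Median centring in place of the intensity-dependent (loess) normalization gave 223 higher and 68 lower, and the log ratio written by the scanner software gave 593 higher and 287 lower. The genes called higher were dim in the control RNA, with a median log2 signal of 7.48 against 9.40 in the deleted RNA. For 42 of them the control RNA was not well above background on either array. The genes called lower had medians of 10.9 in the control and 9.19 in the deleted RNA. Of the genes called higher, 91 were at least 4-fold and 39 at least 8-fold higher; of those called lower, 25 and 3 reached those sizes.

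**Figure D1:**
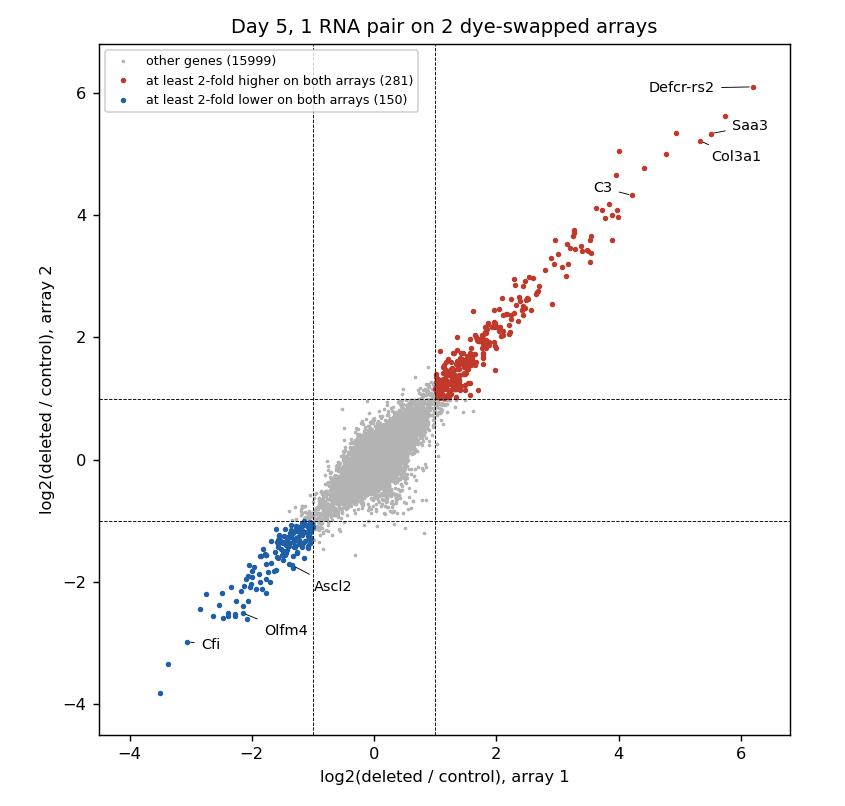
Each point is a gene, with its log2 ratio of deleted over control on array 1 (x axis) and on array 2 (y axis); dashed lines mark a 2-fold difference. The 281 genes called higher reach 6.15 in mean log2 ratio, and Ascl2 and Olfm4 lie among the 150 called lower.

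The largest ratios among genes with a symbol were those of inflammation and connective tissue. Saa3, an acute phase protein, had log2 signals of 8.52 and 8.78 in the control RNA and 14.03 and 14.12 in the deleted RNA, a mean log2 ratio of 5.42. Collagens Col3a1 (5.27), Col1a1 (5.14) and Col1a2 (4.89) and the matrix proteoglycan Dcn (4.59) came next; a second Col1a1 probe gave 1.47. S100a9 (4.53), complement C3 (4.28), the protease inhibitor Slpi (4.03), haptoglobin Hp (4.01), Ccdc80 (3.98), Saa1 (3.95), Anxa1 (3.90), S100a4 (3.87) and Itm2a (3.87) were also among the 15 highest. Fndc1 completed them at 4.31, at least 19.8-fold higher, since its control RNA was not well above background, but another of its probes gave -0.11. A second Saa1 probe gave 1.31. Here and below, "at least" sets the brighter RNA against the higher of the dim probe's own signal and the lowest signal that counted as well above background.

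The 15 lowest with a symbol were led by complement factor I, Cfi, at -3.02. Its log2 signals were 11.38 and 11.43 in the control RNA and 8.32 and 8.45 in the deleted RNA. The 2 extracts thus differed by far more than the arrays did, which says nothing of the spread between mice. Pdk4, a kinase that restrains pyruvate oxidation, was at -2.60. The drug-metabolizing Cyp3a41a (-2.64), Cyp3a44 (-2.47), Cyp3a16 (-2.45) and Cyp3a11 (-2.42) have near-identical sequences, so their probes may report the same transcripts. Interferon response genes Rtp4 (-2.48), Ifi44 (-2.46) and Rsad2 (-2.28) were in the same range. The others were Hddc3 (-2.40), the vitamin B12 receptor Cubn (-2.34), Angpt2 (-2.33), Olfm4, the lipid droplet protein Hsd17b13 (-2.27) and the retinol dehydrogenase Rdh16f2 (-2.21).

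Among 35 crypt base stem cell genes, 30 lay below 0 and 4 were called lower, a share of 11.4% against 0.913% of all genes. Among those calls Ascl2 is the deleted gene itself and Olfm4 a marker named in advance, so the share is partly set by the design. The other calls were Gkn3 and Cyp2e1. No gene of the list was called higher. The list's median was -0.36 on array 1 and -0.29 on array 2, against a median of -0.00 over all genes. Gkn3, a gastrokine of these cells, had control log2 signals of 10.32 and 10.27 and deleted signals of 8.83 and 8.62, a ratio of -1.57. Cyp2e1 was at -1.24, with the deleted RNA well above background on 1 array only. Lgr5 had control signals of 10.05 and 10.21 and deleted signals of 9.14 and 9.27; its ratios of -0.91 and -0.94 agree between arrays and stay short of the call. The urea transporter Slc14a1 was at -0.96.

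The members were unequal. Smoc2 (-0.41), Tnfrsf19 (-0.44), Cdk6 (-0.43) and Ephb3 (-0.41) were lower by less than Lgr5. The Wnt feedback genes Axin2 (-0.14) and Rnf43 (-0.24) and the transcription factor Sox9 (-0.19) lay near 0. The Wnt target Sp5 was higher, with log2 ratios of 0.66 and 0.56. In the sorts, GFP-high over GFP-low cells gave this list median log2 ratios of 0.83 and 0.84; Lgr5 was at 2.10 and 2.56, Sp5 at 1.49 and 1.42, Olfm4 at 1.24 and 0.65, and Ascl2 at 0.36 and 0.79. Gkn3 was at 1.45 and 1.46, close to Sp5 in the sorts and on the other side of 0 in the deletion comparison.

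**Figure D2:**
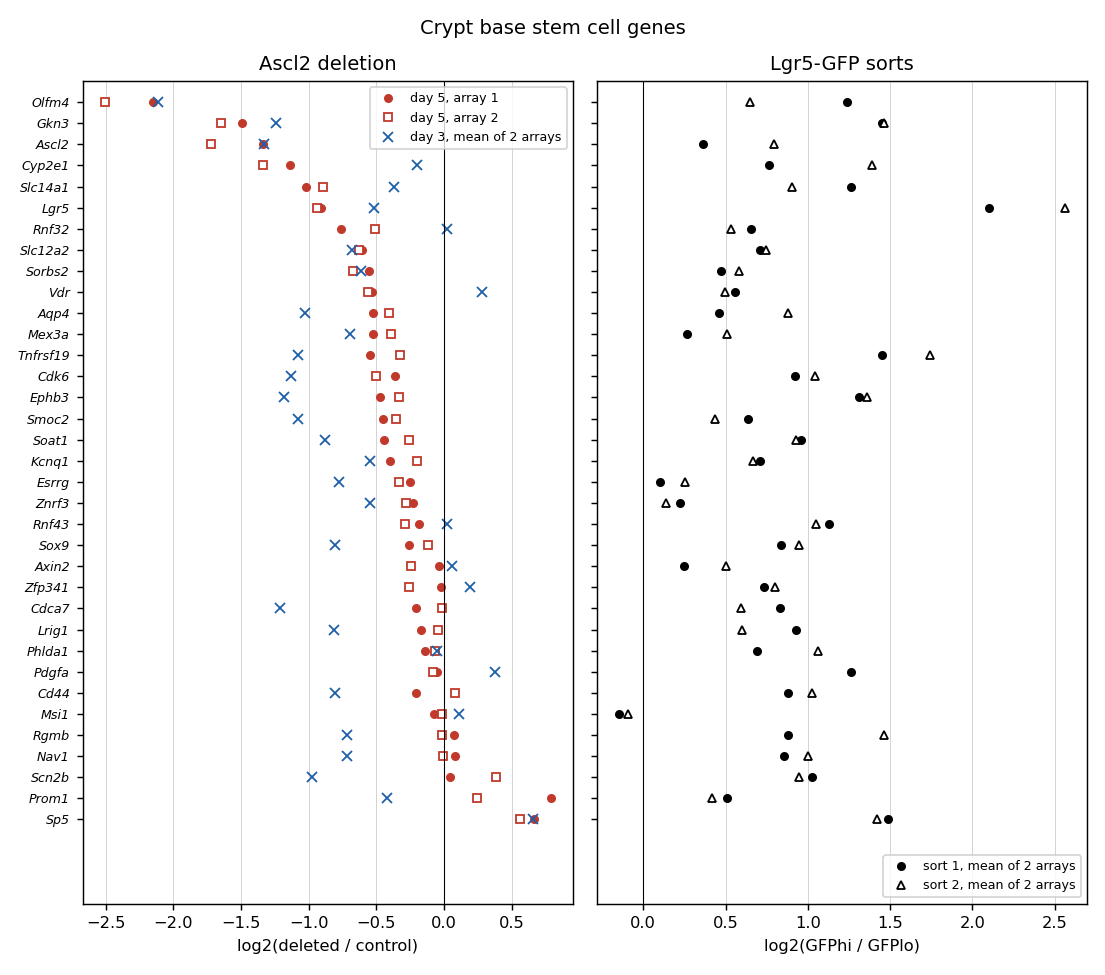
The left panel gives the log2 ratio of deleted over control for 35 crypt base genes on both day 5 arrays, with the day 3 mean; the right panel gives GFP-high over GFP-low for the 2 sorts. Olfm4, Gkn3, Ascl2 and Cyp2e1 lie below -1 on both day 5 arrays, whereas Sp5 lies above 0 on both.

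Wnt feedback genes and targets (21 measured) had a median of -0.06. Ascl2, the deleted gene itself, and the Wnt inhibitor Apcdd1 (-1.37) were called lower, or 9.52% against 0.913% of all genes. Ccnd1, which drives entry into the cell cycle, was at 0.73, and Myc at 0.02. The 14 Notch genes had a median of -0.09 and no call; the Notch target Hes1 was at -0.66 and the ligand Dll1 at -0.40. Genes linked to reserve stem cells (8 measured, median -0.18) held no call: Bmi1 was at 0.10, Hopx at -0.27, and Igfbp5 was at least 2.06-fold higher, its control RNA not being well above background. Among 12 ERK feedback genes the phosphatase Dusp4 was called lower at -1.86 (a second probe at -0.71), while Dusp6, another such phosphatase, was at 0.78; the list's median of -0.01 had no steady sign across the processing alternatives. The 10 Eph receptors and ephrins, which position cells along the crypt, had a median of -0.10 and no call. The E proteins that pair with Ascl2, and the Id inhibitors that compete for them (10 measured), held no call, and Id2 was at -0.72.

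E proteins and their partners bind the E-box CANNTG. The 250 bases before the start site of the strongest of these genes are printed with the E-box in capitals, from RefSeq (GRCm38.p6), each 5′ to 3′ on the gene's strand. The Olfm4 window is chr14:80000052-80000301 (plus), and the Gkn3 window is chr6:87388936-87389185 (minus).
Olfm4: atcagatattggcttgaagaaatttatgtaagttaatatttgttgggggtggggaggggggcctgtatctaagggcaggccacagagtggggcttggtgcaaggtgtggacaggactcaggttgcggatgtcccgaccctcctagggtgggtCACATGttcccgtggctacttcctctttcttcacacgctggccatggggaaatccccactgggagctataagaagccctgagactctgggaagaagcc
Gkn3: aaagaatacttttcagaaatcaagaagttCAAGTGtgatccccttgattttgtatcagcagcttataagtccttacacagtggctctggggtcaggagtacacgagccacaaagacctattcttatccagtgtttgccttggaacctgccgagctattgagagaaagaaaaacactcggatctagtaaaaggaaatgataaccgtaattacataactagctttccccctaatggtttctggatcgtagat
The match begins 98 bases before the start in Olfm4 and 221 bases before it in Gkn3. All 4 crypt base genes called lower held an E-box on either strand, and none held the palindrome CAGCTG. An E-box of any kind was in 66.2% of all 32851 windows, the palindrome in 13.0%. Of the 25 crypt base genes with a window 64.0% held an E-box, against 63.2% of the genes tested. These are letter matches only.

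Most enteroendocrine and tuft genes lay below 0 on day 5, while the goblet genes and the lineage factors held no call. The 18 secretory lineage factors had no call and a median of -0.18; Foxa2 was lowest, at -1.08 and -0.92 on the arrays, and Atoh1, which commits cells to secretory fates, was at -0.16. The 21 goblet genes had no call, with the mucin Muc2 at 0.14. Of 26 enteroendocrine genes 24 were below 0 (median -0.34), against 8299 of 16430 over all genes. The secretogranin Scg5 was called lower at -1.34, the hormone Sst was at -0.97, and Chga at 0.04. Of 15 tuft genes 14 were below 0 (median -0.35). Rgs13 (-1.11) and Ltc4s (-1.06), which makes leukotriene C4, were called lower, 13.3% of those measured against 0.913% of all genes. The channel Trpm5 was at -0.50.

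Paneth cells, whose granules hold lysozyme and defensins, gave 1 call among 23 measured genes. The defensin-related Defcr-rs2 had control log2 signals of 9.29 and 9.40 and deleted signals of 15.49 and 15.50, a 70.9-fold difference. The day 3 RNAs of both genotypes were bright for it, at 15.14 (control) and 13.32 (deleted), so the day 5 control RNA is the one that stands apart. Defcr-rs10, chosen after its values were seen, had the same order, at 8.68 in the day 5 control RNA and between 12.06 and 14.37 in the other RNAs. This family has near-identical members, and its assignment to single genes is uncertain. Lysozyme, Lyz1, gave 0.83 on array 1 and -0.08 on array 2, Mmp7 0.69 on average, Mptx1 0.55 and Pnliprp2 -0.96. The list's median of 0.09 had opposite signs on the arrays (0.32 and -0.02).

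Enterocyte genes were mostly a little lower. Of 29 brush border genes 22 were below 0, with a median of -0.32 (-0.20 and -0.30 on the arrays), against 8299 of 16430 below 0 over all genes. Of 25 oxidative phosphorylation genes, which are bright too, 22 were below 0, with medians of 0.03 and -0.22 on the arrays. Whether brightness or array has a part in such small shifts was not tested. The trehalase Treh (-1.03) was the lowest brush border gene, and the only call was Tmigd1, higher at 1.60. Of 23 genes of fat absorption 20 were below 0 (median -0.34). The apolipoprotein Apoa4 had control log2 signals of 14.45 and 14.55 and deleted signals of 13.01 and 13.22, a ratio of -1.39, and the fatty acid receptor Cd36 was at -1.31. Apoc3 was at -1.06 and not called, because array 1 gave -0.98. Of 25 genes of fatty acid oxidation and PPAR targets 22 were below 0, with Pdk4 the only call.

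Genes of vitamin A handling and of the proximal intestine held more calls. Among 19 retinoid genes 17 were below 0, with a median of -0.59 and 5 called lower, or 26.3% against 0.913% of all genes. The alcohol dehydrogenase Adh1, which oxidizes retinol, had control signals of 15.10 and 15.29 and deleted signals of 13.34 and 13.12, a ratio of -1.97; another of its probes gave 0.26. Adh4 (-1.66), Rdh7 (-1.50), Aldh1a1 (-1.31) and Aldh1a7 (-1.17) were called lower too. Aldh1a2, another retinaldehyde dehydrogenase, was called higher at 2.27, from 7.28 and 6.92 to 9.44 and 9.30. Proximal genes (15 measured, median -0.59) had 6 called lower, or 40% against 0.913% of all genes. They were Cubn, which is also on the distal list, Adh6a (-2.05), Cyp2b10 (-1.85), Ada (-1.42), Apoa4 and the folate transporter Slc46a1 (-1.26). The iron exporter Slc40a1 was called higher at 1.91. Of 11 distal genes Cubn was the only call; the list's median of -0.04 turned sign under some alternatives.

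Xenobiotic enzymes and efflux pumps (33 measured, median -0.30) had 8 called lower (24.2% against 0.913% of all genes) and 2 higher (6.06% against 1.71%). Beside Cyp3a11 and Cyp2b10, those lower were Ugt2b5 (-1.66), Cyp2d26 (-1.56), Cyp3a25 (-1.28), Cyp2e1, Ces1d (-1.14) and the efflux pump Abcc2 (-1.05). Cyp1b1 was called higher at 3.07, from control signals of 6.85 and 6.75 to 9.98 and 9.76, the control RNA being well above background on 1 array only; Gsta3 was at 1.11. Cyp1a1, whose promoter drives the Cre, gave 0.07 and -0.02. Its level was 9.02 in the control and 9.04 in the deleted RNA on day 5, against 13.52 and 14.23 on day 3.

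All 25 cholesterol synthesis genes lay above 0, against 8131 of 16430 over all genes, with a median of 0.64 (0.55 and 0.69 on the arrays). Only 1 of them was called higher, or 4% against 1.71% of all genes. Sqle, a squalene-oxidizing enzyme, had control log2 signals of 12.86 and 13.15 and deleted signals of 14.18 and 14.02, a mean ratio of 1.09, and was not called because array 2 gave 0.86. Lss and Mvd, enzymes of the same pathway, were at 0.83 each. Among 13 fatty acid synthesis genes Scd2, a desaturase, was called higher at 2.43, and Fasn was at 0.85. Of 21 hypoxia and glycolysis genes Hk2 was called higher (1.40). Of 17 genes of the guanylin pathway and fluid secretion the sodium-proton exchanger Slc9a3 was called higher (1.10) and the water channel Aqp1 lower (-1.32).

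Fibroblast and matrix genes held the largest share of calls of any list, 16 of 22 measured, or 72.7% against 1.71% of all genes. Their median was 1.83 on array 1 and 2.19 on array 2, and 1.99 with genes below background in the control RNA at their bound. Col3a1 had control log2 signals of 8.63 and 8.62 and deleted signals of 13.96 and 13.84, and Dcn 8.58 and 8.42 against 12.99 and 13.19. Mgp (3.57), Sparc (3.46), Fstl1 (3.19), Col5a1 (3.12), Fn1 (2.72), Pdgfra (2.05), Timp2 (2.03), Fbln2 (1.95), Lum (1.83), Vim (1.57), Col6a3 (at least 3.82-fold) and Col6a1 (at least 3.07-fold) completed the calls. Thy1 (0.04), Col4a1 (0.45), Fbln1 (-0.50), Pdgfrb, Col6a2 and Col14a1 were not called. Of the 22 measured genes 2 lay below 0. Of 26 listed genes 13 were above background in the control RNA and 22 in the deleted RNA, so the share of calls counts genes that entered through the deleted RNA alone. The mean log2 signal of the list was 7.61 and 7.44 in the control and 9.52 and 9.45 in the deleted RNA. Col4a2, Postn, Dpt and Mmp2 could not be measured in either.

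Other non-epithelial markers held fewer calls. None of the 7 smooth muscle genes measured was called (median 0.33; Myl9 0.75, Acta2 0.18), and Des, Synm and Lmod1 were unmeasured. Of 7 endothelial genes only Cd34, which fibroblasts also carry, was called, at 3.45; Pecam1, Cdh5, Tie1, Emcn and Eng were not well above background in either RNA. The 24 T cell and intraepithelial lymphocyte genes held no call (median -0.03). Of 20 myeloid genes 4 were called higher, or 20% against 1.71% of all genes. They were S100a9 and S100a8 (at least 5.24-fold), which neutrophils carry, the macrophage gene Adgre1 (1.11) and Ly6c1 (1.18). Of 9 mast cell genes measured 1 was called higher, or 11.1% against 1.71% of all genes, and the median was 0.17. The highest was the histamine gene Hdc, at 1.91, while Tpsb2 and Tpsab1 were unmeasured. Among 12 B and plasma cell genes the immunoglobulin Igh-VJ558 was at 1.60 and Iglv1 at -1.39, both with near-identical relatives. These cells are labelled epithelial; the part of stromal and immune RNA in the results above and below was not tested.

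Acute phase and antimicrobial genes (26 measured) had 10 called higher, a share of 38.5% against 1.71% of all genes, and Cfi lower. Beside Saa3, S100a9, C3, Saa1 and S100a8 these were the neutrophil attractants Cxcl5 (at least 10.2-fold) and Cxcl1 (at least 3.42-fold), Duoxa2 (2.05), Saa2 (1.60) and Lcn2 (1.18). In the control RNA 20 listed genes were above background and in the deleted RNA 26, so the share counts genes that entered through the deleted RNA alone. C3 was far apart between the RNAs, with log2 ratios of 4.23 and 4.32 on the arrays. Duoxa2, a maturation factor of an epithelial peroxide-forming oxidase, had control signals of 10.59 and 10.74 and deleted signals of 12.67 and 12.76. The antimicrobial lectins Reg3g (1.63 and 0.80) and Reg3b (0.58 and 0.36) were higher on both arrays without being called. Of 22 genes reported in regenerating epithelium, 6 were called higher, or 27.3% against 1.71% of all genes. They were Anxa1, Msln (3.08), Clu (2.73), Spp1 (2.50), Anxa8 (2.43) and Arg1 (2.07). Ly6a was at 1.23. Clu gave 7.69 and 7.68 in the control and 10.60 and 10.22 in the deleted RNA. Msln is also a marker of mesothelium, and the mesothelial genes Muc16 (2.23) and Upk3b (1.20), chosen after their values were seen, were higher too. Most of the fibroblast genes described above were also higher in this 1 deleted RNA. Whether fibroblast or mesothelial RNA has a part in the values of these lists was not tested.

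Interferon response genes lay on both sides of 0, and nearly all of their calls were lower. Of 42 measured, 25 were below 0 and 17 above, with a median of -0.26. Calls lower numbered 11 (26.2% against 0.913% of all genes). Only 1 was called higher, or 2.38%, near the 1.71% of all genes. Those lower are mostly known as type I interferon targets: Rtp4, Ifi44, Rsad2, Oas1a (-1.51), Ifit1 (-1.43), Ifit3 (-1.40), Oasl2 (-1.39), the ubiquitin-like Isg15 (-1.36), Ifi27 (-1.19), Oas2 (-1.16) and Dhx58 (-1.09). Rsad2 had control signals of 9.47 and 9.70 and deleted signals of 7.22 and 7.39, and its 3 probes ranged from -2.28 to -0.80. Irf7, a regulator of this response, was at -1.13. The GTPase Iigp1, known from the response to interferon gamma, was called higher at 1.49, from 9.85 and 9.71 to 11.25 and 11.29. The related GTPases Tgtp1 (0.69), Igtp (0.68) and Gbp2 (0.74) were above 0 without being called. None of 17 listed MHC class I and 8 MHC class II genes was called; H2-T3 was at -1.05. H2-Bl, an MHC class I-like gene outside the list, was called lower at -1.70, from 16.69 and 16.57 in the control to 15.09 and 14.77 in the deleted RNA.

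Interferon-stimulated promoters often hold the element GAAANNGAAA. It is shown in 4 windows, those of Rsad2, Ifit1 and Isg15, called lower, and of Igtp, above 0 but not called. Capitals mark the match (its reverse complement where the match is on the other strand). They are from RefSeq (GRCm38.p6), 5′ to 3′ on the gene's strand: Rsad2 chr12:26456453-26456702 (minus), Ifit1 chr19:34640639-34640888 (plus), Isg15 chr4:156200819-156201068 (minus) and Igtp chr11:58199306-58199555 (plus).
Rsad2: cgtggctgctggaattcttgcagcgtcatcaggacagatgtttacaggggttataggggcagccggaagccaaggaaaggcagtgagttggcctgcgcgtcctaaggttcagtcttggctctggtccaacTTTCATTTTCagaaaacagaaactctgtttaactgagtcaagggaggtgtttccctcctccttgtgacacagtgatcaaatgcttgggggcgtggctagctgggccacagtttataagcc
Ifit1: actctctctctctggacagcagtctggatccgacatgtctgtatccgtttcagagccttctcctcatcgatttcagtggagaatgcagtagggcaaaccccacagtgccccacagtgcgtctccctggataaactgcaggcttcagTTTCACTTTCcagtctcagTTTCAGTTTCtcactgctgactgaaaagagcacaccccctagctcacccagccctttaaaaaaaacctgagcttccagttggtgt
Isg15: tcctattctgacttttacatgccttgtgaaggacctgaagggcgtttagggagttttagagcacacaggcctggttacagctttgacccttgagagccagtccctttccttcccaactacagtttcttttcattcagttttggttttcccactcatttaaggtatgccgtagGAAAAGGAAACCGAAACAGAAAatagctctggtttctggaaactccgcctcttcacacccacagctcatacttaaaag
Igtp: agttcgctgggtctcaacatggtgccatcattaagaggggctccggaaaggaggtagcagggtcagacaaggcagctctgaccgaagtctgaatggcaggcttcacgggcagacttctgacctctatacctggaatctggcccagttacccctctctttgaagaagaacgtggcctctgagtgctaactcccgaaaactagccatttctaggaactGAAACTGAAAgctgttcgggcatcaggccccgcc
Rsad2 held 1 match, Ifit1 2, Isg15 3 that overlap one another, and Igtp 1, which begins 34 bases before the start. The array files place the Isg15 probe on chromosome 17 (mm8), whereas RefSeq has the gene on chromosome 4, so a related locus may add to its signal. The element was in 2.98% of all windows on either strand. Of 30 interferon response genes with a window, 16 (53.3%) held it, against 3.29% of the genes tested. It was in 5 of 7 such genes called lower, in 9 of 18 below 0 and in 7 of 12 above 0, so its presence does not separate the directions.

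**Figure D3:**
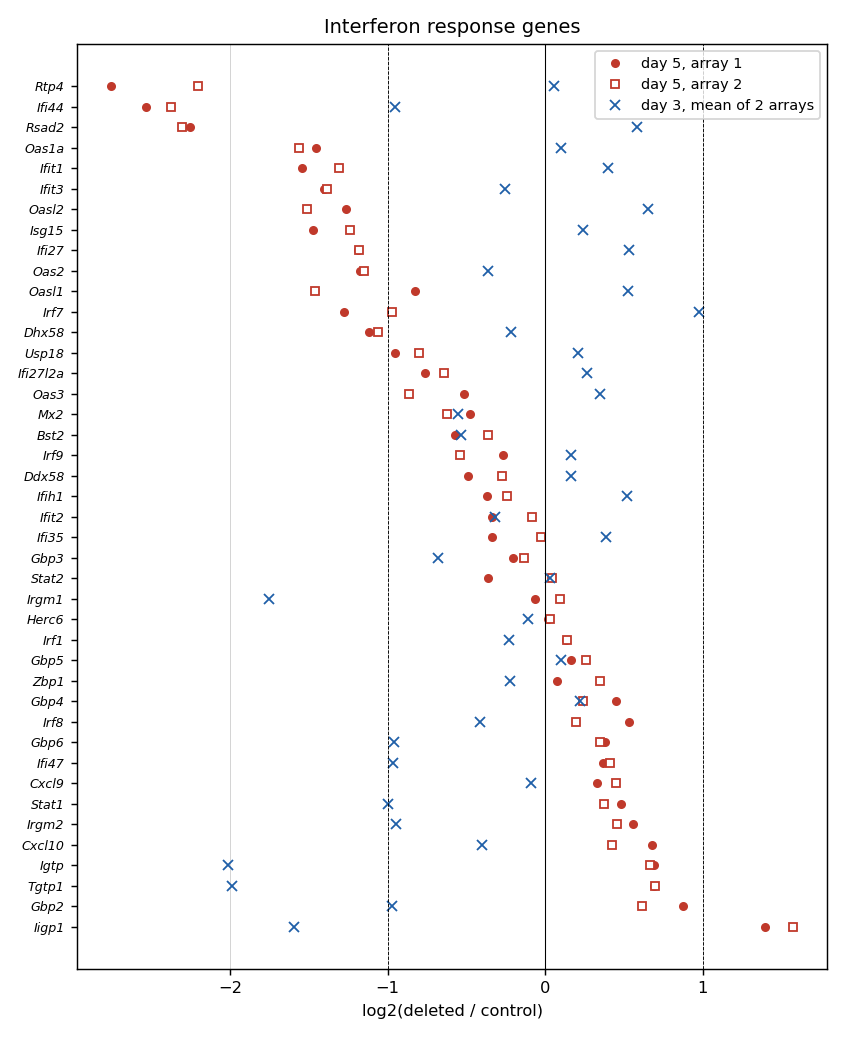
Log2 ratios of deleted over control (x axis) for 42 interferon response genes on the 2 day 5 arrays, with the day 3 mean; dashed lines mark a 2-fold difference. Rtp4, Ifi44 and Rsad2 lie below -2 on both day 5 arrays, and the GTPases Tgtp1, Igtp, Gbp2 and Iigp1 lie above 0 on day 5 and below 0 on day 3.

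Cell cycle genes stayed close to 0. No gene among 30 of DNA replication and G1/S (median -0.08, range -0.51 to 0.29) or 30 of mitosis and G2/M (median 0.03, range -0.28 to 0.32) was called. Mki67, which marks dividing cells, had control signals of 15.35 and 15.01 and deleted signals of 15.26 and 15.28, which overlap. Of 17 circadian genes the clock output factor Dbp was called lower (-1.49), and Nr1d2 (-1.04), Nr1d1 (-0.88), Tef (-0.77) and Hlf (-0.65) were below 0; no source used here gives the hour of collection. Among 25 genes of protein folding stress Chac1 was called higher (1.56), and among 26 immediate early and heat shock genes the small chaperone Hspb1 (2.15). None of 19 p53 targets was called. Of 14 purine salvage genes the deaminase Ada (-1.42) and the nucleoside transporter Slc28a2 (-1.69) were called lower, or 14.3% against 0.913% of all genes. Ada is also counted among the proximal genes.

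Further lists bear on the locus, the tissue and the arrays. Of 18 measured genes that lie near Ascl2 in the imprinted cluster, Ascl2 was the only one called; its neighbour Phlda2 was at 0.59 and Cdkn1c at -0.36. No junction or keratin gene (19 measured) and no oxidative phosphorylation gene (25) was called. The 74 ribosomal protein genes had medians of 0.11 on array 1 and -0.48 on array 2, opposite in sign, and -0.19 for the mean ratio; dye and array cannot be told apart. The X-inactivation transcript Xist was at 0.69, and the Y-linked Ddx3y, Eif2s3y, Kdm5d and Uty were not well above background in either RNA. Cela1 was the only pancreas gene called, at 1.45, and no erythroid gene was.

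**Figure D4:**
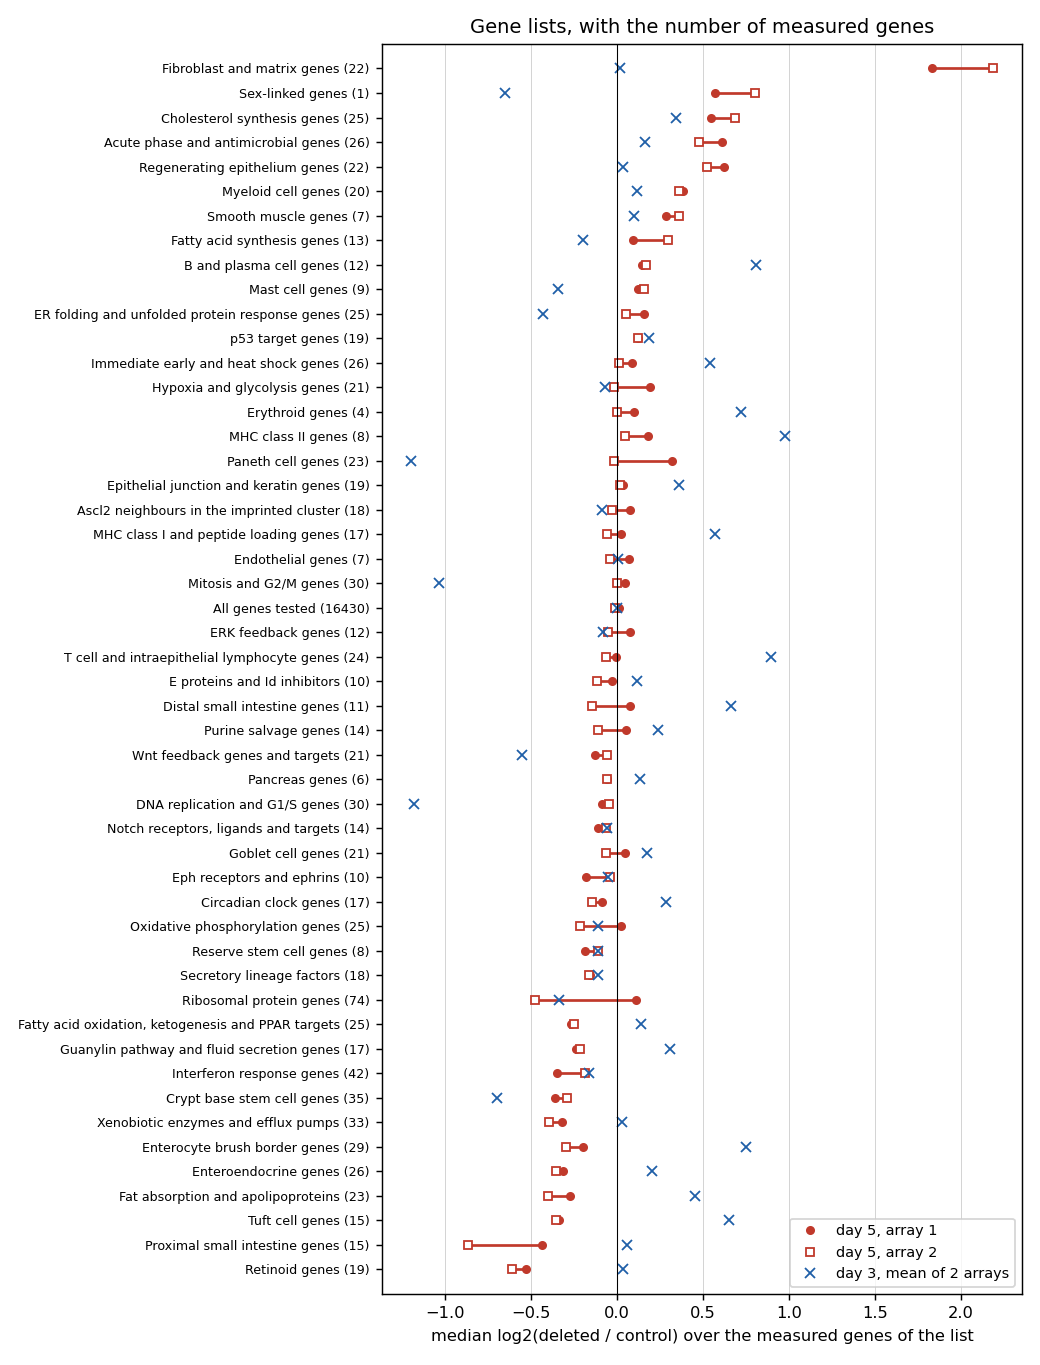
Median log2 ratio of deleted over control for each gene list, with the number of measured genes; red symbols are the 2 day 5 arrays and blue crosses day 3. Fibroblast and matrix genes stand alone near 2 on day 5 and at 0.02 on day 3, and cell cycle lists lie near 0 on day 5 and below -1 on day 3.

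The day 5 ratios were then set against the day 3 ratios of the same genotypes. Each day has 1 RNA pair on its own slide, so day, mice and slide cannot be told apart. The test (limma with Benjamini-Hochberg adjustment) took its error from the 2 sorts, that is, it assumed that deletion pairs vary as those pools do. Only 10217 of the genes tested were well above background in the sorts; the others had a median SD between the sorts of 0.0634, against 0.0895, so their p-values rest on the error of dim spots. Of 17545 genes tested, 3089 (17.6%) were higher on day 5 and 2278 (13.0%) were lower, at an adjusted p under 0.05. With the log ratios written by the scanner software no gene passed, although 3619 had an unadjusted p under 0.05, so every such call depends on the processing. Ascl2 (difference -0.21, SE 0.20, adjusted p 0.505) and Olfm4 (-0.21, SE 0.24, adjusted p 0.564) were not shown to differ between the days; their day 3 log2 ratios were -1.33 and -2.12. Gkn3 (adjusted p 0.13) and Lgr5 (0.18) were not either.

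By this limma test, 14 of 34 crypt base genes rose from day 3 to day 5 in their ratio and 4 fell, and the list's median was -0.70 on day 3 and -0.30 on day 5. Over all genes measured on day 5, 3072 of 16318 rose and 2227 fell, the shares to set beside each count here. The share of crypt base genes that fell was near that over all genes. Smoc2 went from -1.08 to -0.41 (adjusted p 0.01) and Cdk6 from -1.13 to -0.43 (0.0066), whereas Cyp2e1 went from -0.20 to -1.24 (0.011). In the cell cycle, 25 of 30 G1/S and 29 of 30 mitosis genes rose, from medians of -1.18 and -1.03. Mki67 signals were 14.11 (control) and 12.90 (deleted) on day 3, and 15.18 and 15.27 on day 5. Paneth genes rose in 16 of 23 cases from a day 3 median of -1.20; Lyz1 stood at 17.59 and 16.39 on day 3 and 17.17 and 17.55 on day 5. Of brush border genes 23 of 29 fell from a day 3 median of 0.75, as did 16 of 23 fat absorption genes, 10 of 15 tuft genes and 17 of 24 T cell genes (day 3 median 0.90). Of interferon response genes 13 rose and 20 fell: Igtp went from -2.01 to 0.68 and Irf7 from 0.97 to -1.13. Fibroblast genes rose in 19 of 22 cases, and Fbln1, Thy1 and Pdgfrb fell.

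The largest day differences came from different RNAs. Col3a1 rose by 6.34, with its log2 signal at 10.28 (control) and 9.21 (deleted) on day 3 and at 8.63 and 13.90 on day 5, so the day 5 deleted RNA stands apart; Saa3, C3 and Dcn had that form too. The MHC class I-like H2-Bl had 11.51 and 16.70 on day 3 and 16.63 and 14.93 on day 5, and fell by 6.90 in ratio; its day 3 control RNA stands apart. Ada had 12.05 and 16.32 on day 3 and 13.73 and 12.31 on day 5, Slc28a2 8.66 and 12.55, then 10.06 and 8.37, and the myelin protein gene Pmp22 9.65 and 13.31, then 11.84 and 9.82. In these genes the day 3 deleted RNA was the highest of the 4. Pdk4 had 10.79 and 12.62 on day 3 and was lowest in the day 5 deleted RNA, and Ly6m had 7.66 and 10.72, then 10.19 and 8.32. Cyp1b1 was highest in the day 5 deleted RNA (9.87) and nearly as high in the day 3 control RNA (9.74). Levels across days are single-channel values normalized over the 4 deletion arrays, a description that no test supports.

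**Figure D5:**
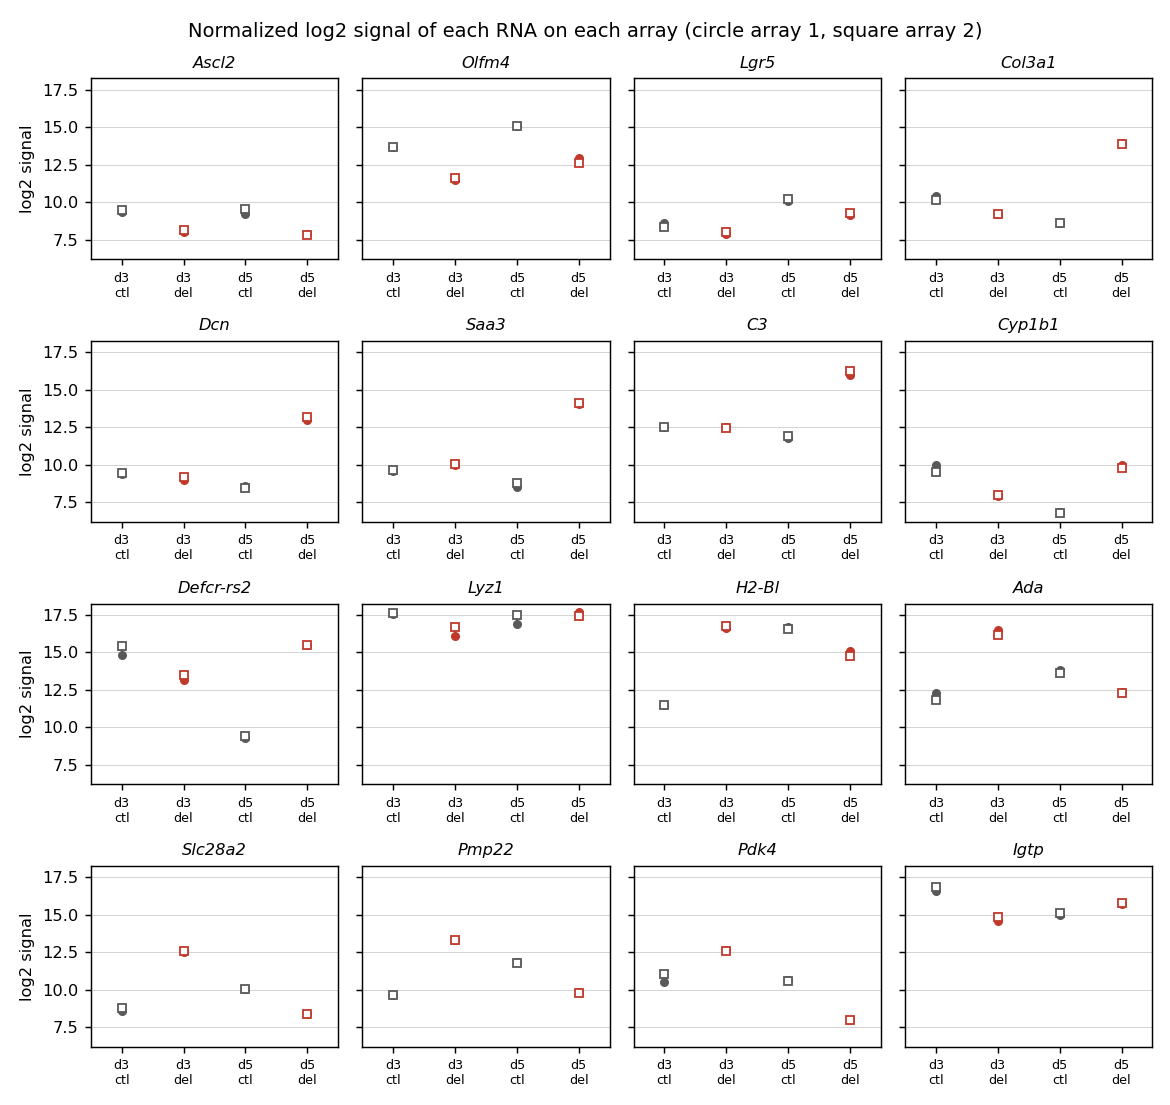
Normalized log2 signal (y axis) of 16 genes in the control (grey) and deleted (red) RNAs of day 3 and day 5; circles are array 1 and squares array 2. Ascl2 and Olfm4 are lower in the deleted RNA on both days, Col3a1, Dcn, Saa3 and C3 are high in the day 5 deleted RNA alone, and Defcr-rs2 is low in the day 5 control RNA alone.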

How the data were processed

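Total RNA was extracted with Trizol and amplified linearly for labelling, per the labels' protocols, then hybridised to 2-colour Agilent 4x44K mouse arrays. The deposited files hold scanner intensity values with a log10 ratio from Feature Extraction 9.5.3.1, per the file headers; a second deposited table holds the authors' processed log2 ratios, which follow the scanner values (r of at least 0.964) with medians of 0.000945 and -0.00732 on day 5, already turned to deleted over control. Mean and local background intensities were corrected with normexp (offset 50) and loess in limma 3.58.1 (R 4.3.3); local backgrounds over 2 times the array median (16 spots on day 5 array 2) were replaced by that median before the fit and those spots left out. Control spots and the 153 and 125 spots marked as outliers were left out. Gene names came through feature numbers from a day 3 file, because 48 day 5 names had been altered by a spreadsheet, and were updated through RefSeq GRCm38.p6 (23374 probes by accession, 6733 with a current symbol, 2919 through an older one, 8148 keeping the file's name). A gene needed a probe well above background in at least 1 RNA on both arrays and was read from its brightest probe; 7 called genes had a probe of opposite sign. The 15 largest called genes with a symbol in each direction, up to 6 members of each list with the largest mean, members that define a list and the 6 largest day differences in each direction were named. The members and lists were chosen with earlier results of these data known. p-values measure only the spread between the sorted pools. On simulated data for day 5 minus day 3 (17545 genes, 50 changed at each size) the test recovered 0, 28, 35 and 35 at log2 sizes of 1, 2, 3 and 4, with 0 false calls. The simulated pairs took the spread of the sorts, so the 0 false calls cannot show how deletion pairs vary. Far fewer genes were changed there than the 5367 called in the data, so the recovery does not describe the test as run here. The number of arrays limits the precision. Alternatives were other backgrounds, offsets, normalizations, filters, probes and call rules. Some genes are not reported here.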

Additional observations from a re-analysis of the deposited data

Results flagged for a closer look

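These 12 genes differed between day 5 and day 3 by the limma test of the difference itself, and are the largest in each direction among genes with a symbol (adjusted p from 7.06e-09 to 3.67e-08 for those higher on day 5 and from 4.87e-09 to 9.68e-08 for those lower). Of these genes only Col1a2, Ada and Slc28a2 were well above background in the sorts, from which the test takes its error; for the other 9 the p-values rest on the error of dim spots (median SD 0.0634 for genes dim in the sorts, against 0.0895). The day 5 minus day 3 log2 ratio was 6.34 for Col3a1, 6.07 for Col1a1, 5.62 for Col1a2, 5.03 for Saa3, 4.90 for Dcn and 4.85 for Cyp1b1. It was -6.90 for H2-Bl, -5.70 for Ada, -5.68 for Pmp22, -5.58 for Slc28a2, -4.94 for Ly6m and -4.44 for Pdk4. With the log ratios of the scanner software none of these passed.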

How the results depend on the processing

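Limits first: day 5 rests on 1 RNA pair, dim genes have only bounds, and their ratios shrink with the background offset. Of the settings tried, the called genes higher and lower on day 5 numbered 593 and 287 with the Feature Extraction log ratio, and 1439 and 1007 passed limma with the spread of the sorts; median centring gave 68 lower. Leaving out array 1 or array 2 gave 323 to 327 higher and 182 to 192 lower. Genes that differed between the days numbered 0 with the Feature Extraction log ratio, 1182 of 6439 with the authors' matrix and 2887 of 10217 among genes above background in the sorts (fewer genes were tested in both); leaving out 1 array of day 5 gave 5509 to 5737, and treating each RNA pair as a random block gave 7456. The block fit entered the arrays singly and estimated a correlation of -0.324 within an RNA pair. Arrays of a pair carry the same extracts, so that fit adds no replicates and its larger count is no stronger evidence. The cause of the count of 0 was not tested. Lists with a median below 0 numbered 26 of 48, and 21 to 32 without 1 array. The local background as measured, an alternative chosen after seeing the data, gave 191 higher and 114 lower. No named gene that was called changed sign under any setting run. Leaving out an array could not turn a called gene, because a call needs the same sign on both arrays. The other settings reprocess the same 2 arrays of day 5. Of 300 named genes at most 10 took the other sign, when an array was left out, none of them over 0.41 in size. No paired analysis was possible because the numbers 1 and 2 within a deletion day name the dye-swapped arrays of 1 RNA pair, so they pair no samples between the days.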

Other observations

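Genes known from mesothelium, the lining of the gut's outer surface, were seen among the high ratios and were chosen after their values were seen. Msln was at 3.08, with log2 signals of 8.28 and 8.17 in the control RNA and 11.23 and 11.38 in the deleted RNA. Muc16 was at 2.23 and Upk3b at 1.20, each well above background on 1 control array only. Lrrn4 (at least 2.71-fold), Wt1 (at least 2.65-fold) and Bnc1 (at least 1.74-fold) were higher in the deleted RNA and not well above background in the control RNA. On day 3 Msln was at -0.08 and Muc16 at -0.77. B3galt5, a galactosyltransferase chosen in the same way, had signals of 11.89 and 11.90 in the control RNA and 15.37 and 15.33 in the deleted RNA on day 5, a log2 ratio of 3.46, against a ratio of -1.24 on day 3.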
